A study of Gallus gallus with 6 samples.

Results

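The rows described here carry the family label of bromodomain proteins, chromatin factors that bind acetylated lysines on histones and other proteins. Whether each row encodes such a protein was not checked, and the label also covers a row annotated as a pseudogene. Members were the rows of the deposited gene table whose family column reads Bromodomain, without KAT2A and without genes of chromosome 16. The rule took 23 of the 20285 rows, 16 with a gene symbol and 7 without one. The family was chosen by its measured heat changes, because its genes moved one way on the same counts reported here. Heat changes of the members, and which of them passed the threshold of a fit over all genes, are therefore given as a description. They are no independent test of the members and support nothing about the family.

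RNA came from the uterovaginal junction of breeder hens (Gallus gallus), the stretch of oviduct between uterus and vagina that holds the sperm storage tubules. Hens kept at a thermoneutral 23 °C gave 3 libraries (TN1 to TN3), and hens held at 36 °C for 6 h, the heat stress group, gave 3 more (HS1 to HS3). Every library was a pool of RNA from 4 hens, 24 hens in all, so a replicate is a pool and the spread given is between pools. The labels used here state no breed, age or humidity.

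A bromodomain folds into a small bundle of helices with a pocket for the acetylated side chain. The proteins that carry it sit in several machines: acetyltransferase complexes that write the mark, chromatin remodellers that move nucleosomes, BET proteins that link acetylated chromatin to transcription elongation, and TRIM and MYND proteins that act as co-repressors or co-activators. In human cells acute heat is known to go with gains of histone acetylation at heat-induced genes.

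Library totals ran from 23438814 to 29502991 counts, and mitochondrial genes held 1.66% to 2.12% of them. Of the 35 markers looked at for 8 cell types or tissue functions, 32 had a row, and CD74, HBAD and CALB1 had none under these symbols. Epithelial, smooth muscle, ciliated and fibroblast markers were abundant as sums, but single markers differed widely in level. Over the 6 libraries the epithelial marker EPCAM lay between 1927 and 2474 CPM and KRT18 between 59.7 and 125.0 CPM. The muscle marker DES lay between 1038 and 1591 CPM. CPM are read counts relative to library sizes scaled by the TMM method. Under heat 3 of the 32 markers passed the test as lower (CFAP45, PDGFRA and LUM) and 0 as higher, where 9.52% of all tested genes were called lower and 10.2% higher. The summed epithelial markers ran from 4796 to 5190 CPM in the thermoneutral and from 4931 to 5542 CPM in the heat stress libraries. Within this sum EPCAM went from 1927 to 2076 CPM in the thermoneutral to 2150 to 2474 CPM in the heat stress libraries. KRT18 went the other way, from 89.1 to 125.0 CPM to 59.7 to 77.2 CPM. Neither passed, and the groups of CDH1, KRT7 and CLDN3 overlapped. For smooth muscle the sums ran from 3829.5 to 6129.5 and from 3569 to 5029.7 CPM, and for fibroblasts, which hold PDGFRA and LUM, from 2515 to 3638 and from 2676 to 2832 CPM. Their part in the members' differences was not tested. In tissue of mixed cells, more cells of a type and more RNA per cell cannot be told apart.

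Of the 23 members, 22 had a higher mean level under heat stress, and none changed by as much as 2-fold. All 23 passed the filter on low counts, and the fewest counts of a member in a library were 74. In edgeR's quasi-likelihood fit over all 15655 tested genes, 11 members were higher at a Benjamini-Hochberg adjusted p under 0.05, 0 were lower and 12 did not pass. Of all tested genes 10.2% were called higher and 9.52% lower, 19.8% in all. At an unadjusted p under 0.05, 13 members were higher and 0 lower. The share of all tested genes at an unadjusted p is not given here, and the shares above belong to the adjusted p. Nothing is therefore read from counts at an unadjusted p, for the members or for the lists further below. DESeq2 and limma-voom also called 11 members higher and 0 lower. Over all genes DESeq2 called 2049 (13.2%) higher and 1877 lower, and limma-voom 1518 (9.70%) higher and 1506 lower. These shares also apply to the DESeq2 and limma-voom counts of the lists further below. The members' counts restate the choice of the family and nothing is read from them. The median log2 change was 0.25 over the members and −0.01 over all tested genes. In 14 members all 3 heat stress libraries lay above all 3 thermoneutral libraries, in 0 below, and in 9 the groups overlapped, where 21.5% of all tested genes had the first pattern and 21.0% the second.

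**Figure D1:**
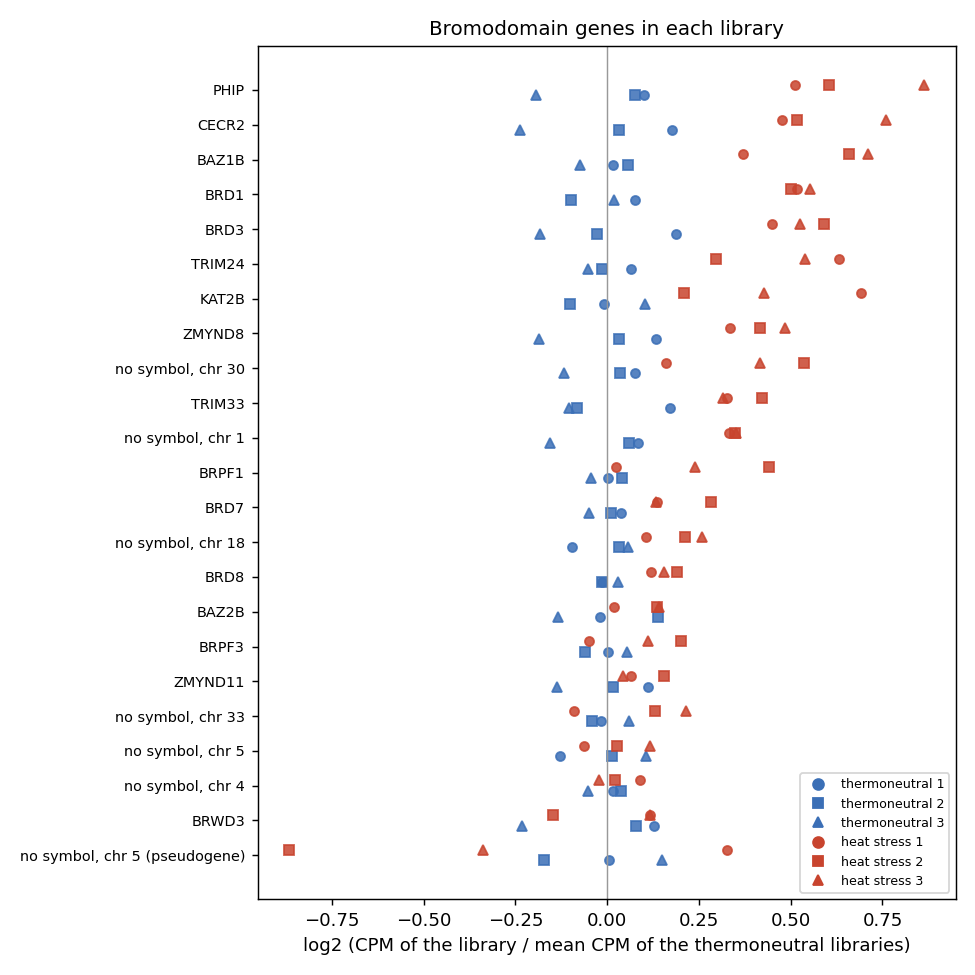
Each row is a member with the bromodomain label and each point a library, plotted as the log2 ratio of its CPM to the mean CPM of the thermoneutral libraries (0 on the axis), with thermoneutral libraries in blue, heat stress libraries in red and the shape giving the replicate. The groups are apart in the upper rows, from PHIP down to the row without a symbol on chromosome 1, and overlap in most lower rows.

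How many members passed differed between fits with a library left out, and so did the share of all tested genes called. The number called higher was 7 without TN1, 1 without TN2, 3 without TN3, 12 without HS1, 5 without HS2 and 1 without HS3. In the same order, 5.48%, 1.12%, 3.55%, 12.7%, 4.91% and 0.91% of all tested genes were called higher in these fits. The same shares of higher calls apply to the lists further below. Lower calls over all tested genes numbered 814, 222, 656, 1672, 689 and 154 in these fits, in the same order, and 1490 with all libraries. Between 15867 and 15976 genes were tested in them. At an unadjusted p under 0.05, 11 to 16 members were higher in the same fits and 0 lower. Their median log2 change ran from 0.20 to 0.34.

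Several members hold acetyltransferases on chromatin. BRD1, on chromosome 1 (18927212 to 18992907, minus strand, GRCg6a), is a scaffold that joins the acetyltransferases KAT7 or KAT6A to their histone substrate. Its level was 77.6, 68.9 and 74.7 CPM in the thermoneutral libraries and 105.5, 104.3 and 108.2 CPM in the heat stress libraries. The heat stress libraries lay close together and well above the others. Means were 73.7 ± 4.46 and 106.0 ± 1.97 CPM (SD, n = 3 libraries per group), a log2 change of 0.52 (SE 0.07) or 1.44-fold. BRD1 passed with any library left out.

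BRPF1 and BRPF3 are the other scaffolds of the same type, and their differences were smaller. BRPF1 (chromosome 12, 11855728 to 11874815) stood at 49.0, 50.3 and 47.4 CPM and, under heat, at 49.7, 66.4 and 57.7 CPM. HS1 fell within the thermoneutral range while the other heat stress libraries lay above it. The log2 change was 0.25 (SE 0.11), and without HS1 it was 0.36 and passed. BRPF3 (chromosome 26, 192701 to 216901) went from 32.5 ± 1.28 to 34.6 ± 2.99 CPM, a log2 change of 0.09 (SE 0.09) with overlapping groups, and its sign turned once the length trend was taken out (−0.01).

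KAT2B is itself an acetyltransferase, the catalytic subunit of SAGA- and ATAC-type complexes, and a close paralog of the KAT2A that the rule leaves out. Its gene (chromosome 2, 35794568 to 35834790) gave 102.0, 95.5 and 110.1 CPM in the thermoneutral and 165.6, 118.5 and 137.8 CPM in the heat stress libraries. The groups did not overlap, and HS1 was the highest of all, which set KAT2B apart from most members. The log2 change was 0.46 (SE 0.12) with all libraries and 0.34 without HS1. How the counting treated reads shared by both paralogs is not given in the sources used here.

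BRD8, a subunit of the TIP60 (NuA4) acetyltransferase complex, had one of the smallest spreads of the family. It gave 82.2, 82.3 and 84.8 CPM (chromosome 13, 10782893 to 10798225) and, under heat, 90.2, 94.8 and 92.5 CPM. The groups did not overlap, but the log2 change was 0.16 (SE 0.06) and did not pass.

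Partners of chromatin remodelling motors were both among the largest and among the smallest differences. BAZ1B, the partner of the ISWI motor SMARCA5 in the WICH complex, lies on chromosome 19 (408113 to 457407). It stood at 116.3, 119.7 and 109.2 CPM in the thermoneutral libraries and at 148.8, 181.5 and 188.2 CPM in the heat stress libraries. All heat stress libraries were higher, HS1 least so. The log2 change was 0.59 (SE 0.10) and it passed with TN1, TN3, HS1 or HS2 left out, but not without TN2 or without HS3.

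CECR2, which also pairs with ISWI motors and is needed for neural tube closure in mice, was the symbol-bearing member with the lowest level. Its row (chromosome 1, 61682861 to 61775123) gave 8.13, 7.35 and 6.10 CPM and, under heat, 10.005, 10.3 and 12.2 CPM, a log2 change of 0.59 (SE 0.17). With a library left out it passed in 1 fit, that without HS1. BAZ2B, another ISWI-associated protein, did not follow. Its CPM values were 74.8, 83.5 and 69.1 against 76.8, 83.3 and 83.6 (chromosome 7, 36554034 to 36661657), with overlapping groups and a log2 change of 0.10 (SE 0.09) that turned to −0.01 once the length trend was taken out.

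BRD7, a subunit of the PBAF form of the SWI/SNF remodeller, went from 75.8 ± 2.31 to 86.2 ± 5.20 CPM (chromosome 11, 6508615 to 6522917). All 3 heat stress libraries lay above the thermoneutral ones, at a log2 change of 0.19 (SE 0.07) that did not pass.

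BRD3 was the BET protein of the family. BET proteins carry a pair of bromodomains and recruit elongation factors to acetylated chromatin. The gene (chromosome 17, 7458700 to 7488415, minus strand) gave 25.1, 21.7 and 19.4 CPM in the thermoneutral libraries and 30.1, 33.3 and 31.8 CPM in the heat stress libraries. No thermoneutral library reached the lowest heat stress library. Means were 22.1 ± 2.87 and 31.7 ± 1.56 CPM, a log2 change of 0.52 (SE 0.11).

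PHIP and BRWD3 are WD-repeat proteins of the same subfamily, and PHIP is a substrate receptor of CUL4 ubiquitin ligases that was first found through its binding to insulin receptor substrate proteins. PHIP showed the largest difference of the 23, with 64.7, 63.6 and 52.8 CPM in the thermoneutral and 86.0, 91.8 and 109.7 CPM in the heat stress libraries (chromosome 3, 79509049 to 79608704). The groups were well apart, and HS3 was highest. The log2 change was 0.67 (SE 0.12) or 1.59-fold, and between 0.56 and 0.76 with any library left out. PHIP passed with TN1, TN3, HS1 or HS2 left out, but not without TN2 or without HS3. BRWD3 showed no such difference, with 44.5, 43.1 and 34.7 CPM against 44.2, 36.8 and 44.2 CPM (chromosome 4, 9426824 to 9460455). Its groups overlapped almost fully, its log2 change was 0.03 (SE 0.12), and the sign turned under several settings, as low as −0.07.

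TRIM24 and TRIM33 belong to the TRIM ubiquitin ligases with a PHD finger next to the bromodomain. TRIM24, a co-regulator of nuclear receptors, gave 19.7, 18.7 and 18.2 CPM and, under heat, 29.3, 23.2 and 27.4 CPM (chromosome 1, 56379268 to 56436811). As with KAT2B, HS1 was highest and HS2 lowest of the heat stress group. The log2 change was 0.49 (SE 0.11). TRIM33, which acts on SMAD proteins of TGF-beta signalling, gave 39.0, 32.8 and 32.3 CPM against 43.5, 46.5 and 43.2 CPM (chromosome 26, 3846650 to 3869273), with TN1 nearest to the heat stress libraries and a log2 change of 0.36 (SE 0.10).

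Of the MYND-finger members, ZMYND8, a reader that works with repressor complexes, was higher and ZMYND11 was not. ZMYND8 stood at 70.6, 65.8 and 56.6 CPM and, under heat, at 81.0, 85.8 and 90.0 CPM (chromosome 20, 5765509 to 5816496), a log2 change of 0.41 (SE 0.09) with separate groups. ZMYND11, which reads a methylated form of histone H3.3 and restrains elongation, stood at 221.2, 206.8 and 186.2 CPM and, under heat, at 214.0, 227.8 and 211.1 CPM (chromosome 2, 9915431 to 9980505). TN1 exceeded 2 of the 3 heat stress libraries, and the log2 change was 0.09 (SE 0.08).

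Of the 7 rows without a symbol, 2 were higher under heat, and no gene name or role is given to them here. ENSGALG00000016065 (chromosome 1, 109272435 to 109323160, minus strand) gave 74.1, 72.8 and 62.7 CPM against 87.9, 89.0 and 89.2 CPM. The heat stress libraries were nearly equal, with a log2 change of 0.34 (SE 0.08). ENSGALG00000034725 (chromosome 30, 504317 to 527127) gave 153.9, 149.6 and 134.7 CPM against 163.3, 211.8 and 194.8 CPM, a log2 change of 0.38 (SE 0.11). Its whole span of 22811 bases lies inside the row named C3 on the same strand, whose own counts came to 41.2% of the member's, so the split of reads between both rows is uncertain.

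The other rows without a symbol did not pass. A row on chromosome 18 (6996577 to 7006003) had separate groups and a log2 change of 0.19 (SE 0.09), and it shares 554 bases with a row on its strand that held 95.5% as many counts. The rows on chromosomes 33 (6904667 to 6912391) and 5 (36184806 to 36199758) had log2 changes of 0.09 (SE 0.09) and 0.03 (SE 0.09), and both also overlap another row on their strand. The row on chromosome 4 (2217826 to 2246491) had a log2 change of 0.03 (SE 0.07), and the file describes it as a RhoG-like GTP-binding protein while its family column reads Bromodomain. The single negative value belonged to a row annotated as a pseudogene on chromosome 5 (10005768 to 10037297). It gave 4.86, 4.29 and 5.36 CPM against 6.07, 2.65 and 3.83 CPM, the widest scatter of the family under heat, and a log2 change of −0.21 (SE 0.30).

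Levels per length differed far more between members than heat moved any of them. In the deposited FPKM values, the thermoneutral mean ran from 70.0 ± 6.43 FPKM for ZMYND11 to 1.54 ± 0.168 FPKM for the pseudogene row, a ratio of 45.6. After ZMYND11 came the chromosome 30 row at 58.9 ± 4.37 FPKM, then BRD7 (36.1 ± 1.31), the chromosome 33 row (35.5 ± 1.21), KAT2B (33.2 ± 2.32) and BAZ1B (29.9 ± 1.47). BRD7, the chromosome 33 row and KAT2B could not be ranked, since the ranges of neighbours overlapped, as did those of KAT2B and BAZ1B. BRD8 (24.2 ± 0.345), the chromosome 4 row (23.1 ± 0.831), the coding row on chromosome 5 (20.4 ± 1.53), BRD1 (19.3 ± 1.25) and ZMYND8 (18.0 ± 2.09) followed.

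A run of members then lay close together. The chromosome 18 row (13.5 ± 0.666 FPKM), BRD3 (12.5 ± 1.71), BRPF1 (11.997 ± 0.376), TRIM33 (10.97 ± 1.26), BAZ2B (10.9 ± 1.04), the chromosome 1 row (10.7 ± 1.00) and PHIP (9.66 ± 1.10) overlapped their neighbours within this run in range. Below them stood BRPF3 (7.48 ± 0.291), BRWD3 (7.08 ± 0.954), TRIM24 (5.69 ± 0.271) and CECR2 (1.57 ± 0.232). In all, 13 of the 22 pairs of neighbours had overlapping thermoneutral ranges. The order depends on the length used. If FPKM are scaled to the library total, those of 14 members rest on a length more than 1% shorter than the table's length column. With that column BAZ1B would have 17.7 in place of 29.9 FPKM and BRPF1 6.14 in place of 11.997 FPKM.

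**Figure D2:**
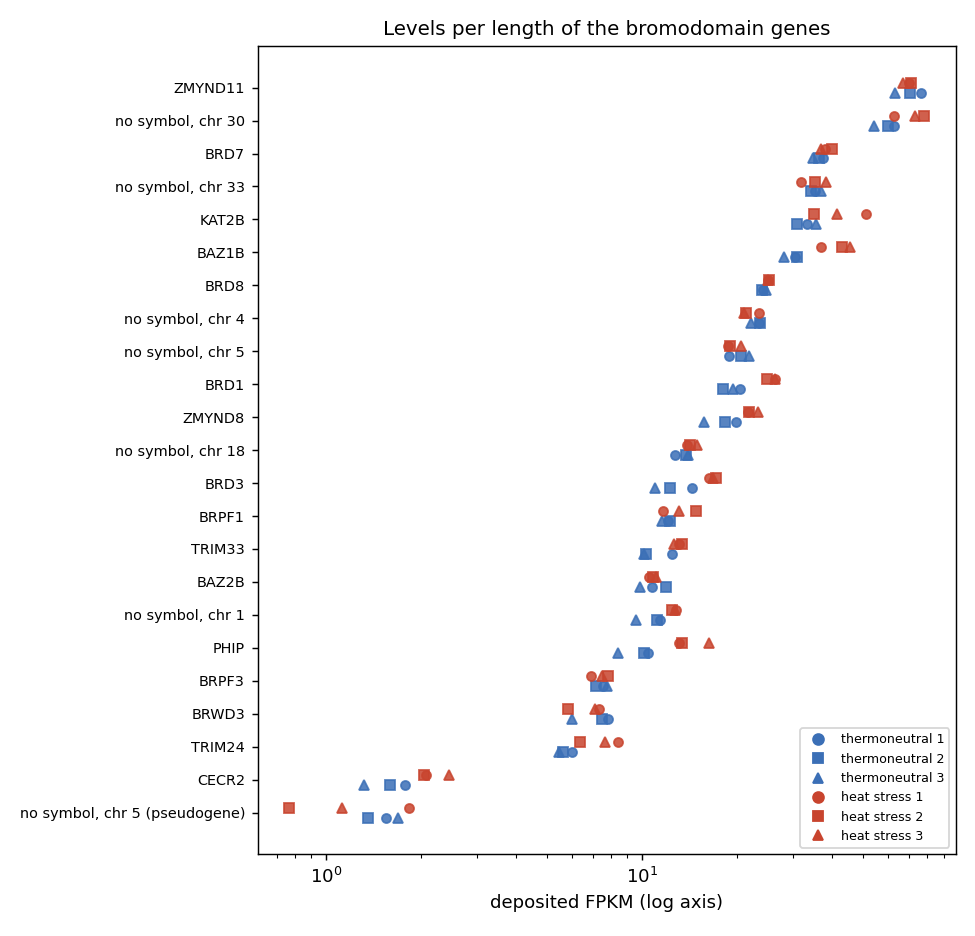
Deposited FPKM of each member with the bromodomain label in each library on a log axis, ordered by the thermoneutral mean, with thermoneutral libraries in blue and heat stress libraries in red. Levels span from ZMYND11 near 70.0 to CECR2 and a pseudogene row near 1.54, and the groups of a gene lie close together on this scale.

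The scale also bears on the direction. The FPKM formula is not given, and FPKM were taken as scaled to the library total without a TMM factor. With that scaling, the FPKM of 9 members returned a length within 1% of the table's length column. On FPKM 11 members had all heat stress libraries above all thermoneutral libraries and 0 below. The share of all genes with either pattern on FPKM was not computed, so nothing is read from this count. With library totals as scaling, an alternative added after the data were seen, the median log2 change of all tested genes shifted by −0.10, 15 members were above 0 and 8 below, and 4 (PHIP, BAZ1B, BRD1 and BRD3) were called higher. Relative to the median of all genes, the members' median was 0.25 in both fits, on the counts that chose the family, so nothing is read from it. Upper-quartile scaling left 19 members above 0 and 7 called higher, and over all genes it turned the split of calls from 1602 higher and 1490 lower to 1265 higher and 1789 lower. Library totals gave 881 higher and 2276 lower.

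The 23 members share properties that the rule did not use. They are spread over 16 chromosomes, with 4 on chromosome 1, and 19 of them are longer than the median tested gene of 2290 bases. Their lengths in the table ran from 1617 to 8249 bases, with a median of 4229. Of all tested genes, those in the top quintile of length (3604 bases and over) were called higher in 17.0% of cases and had a median log2 change of 0.07, against 4.41% and −0.09 in the bottom quintile. The top quintile held 14 of the 23 members. The 11 members that passed had a median length of 4492 bases and the 12 others one of 4100 bases.

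As a description, with the trend in length removed from each library, 9 members were called higher and 0 lower. In that fit 10.3% of all tested genes were called higher. Of the members 18 had a log2 change above 0, and the members' median was 0.23 where that of all genes was 0.01. The members that no longer passed were CECR2 and the chromosome 30 row. These values come from the counts that chose the family, so nothing is read from them about length. Level showed a similar gradient over all genes. The top quintile by mean level held 9 members and the next one 8. In the top quintile 19.3% of all genes were called higher, against 1.25% in the bottom one. The part of level in the members' differences was not tested.

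**Figure D3:**
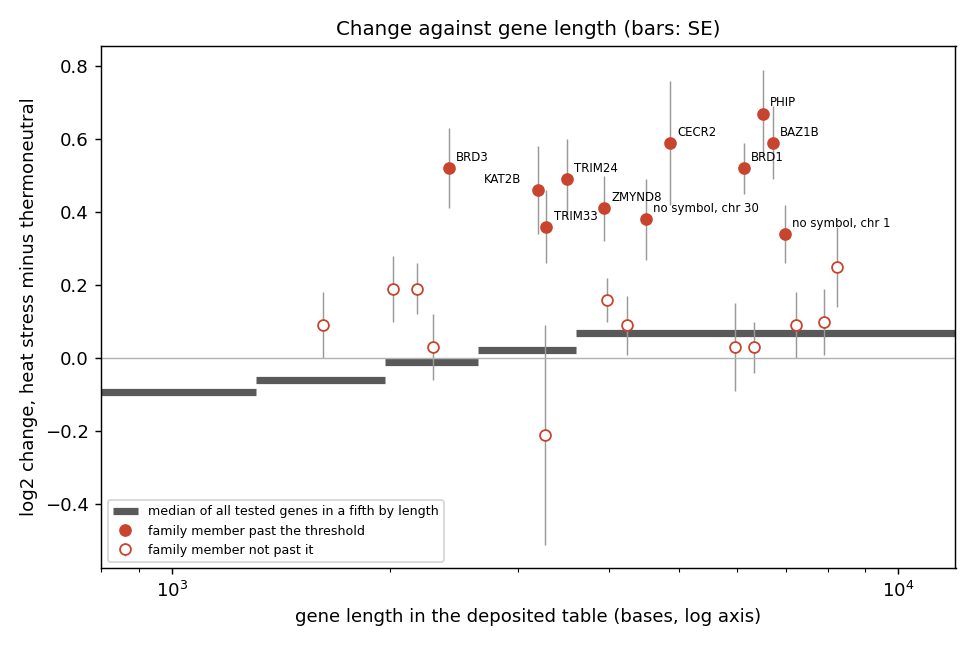
Log2 change of each member with the bromodomain label (heat stress minus thermoneutral, bars give the SE) against gene length in bases on a log axis, with members past the threshold filled. Grey bars mark the median of all tested genes in 5 equal groups by length, which climbs from −0.09 to 0.07, and the filled points lie at 0.34 to 0.67 over lengths from 2408 to 6988 bases.

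The heat stress libraries were not equal in the members. HS1 was the lowest of its group in 14 of the 23 members and in 7 of the 11 that passed, while HS3 was the highest in 10 and HS2 in 8. How often each library was lowest or highest over all tested genes was not computed, so nothing particular to the members is read from these counts. HS1 was the highest in 5 members, among them KAT2B and TRIM24. The CPM summed over the members were 1592, 1555 and 1472 in the thermoneutral and 1810, 1908 and 1918 in the heat stress libraries. Without HS1 the median log2 change of the members was 0.34, and 12 were called higher, beside 12.7% of all tested genes.

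Bromodomain proteins are also encoded by genes that the file files under another domain, and 8 of these had a row and were tested. This list and those below were chosen with earlier results of these data known. Their counts and adjusted p values are therefore a description and no independent support for the family. Of them 4 were higher under heat, 0 were lower and 4 did not pass, beside 10.2% and 9.52% of all tested genes, with a median log2 change of 0.27. At an unadjusted p under 0.05, 5 were higher and 0 lower, DESeq2 called 5 higher and 0 lower, and limma-voom 4 and 0. ASH1L, a methyltransferase of histone H3, gave 193.3, 198.3 and 163.4 CPM against 252.5, 265.3 and 287.2 CPM, a log2 change of 0.54 (SE 0.10, adjusted p = 0.0133 in edgeR's quasi-likelihood test). CREBBP and EP300 are the paired acetyltransferase co-activators. CREBBP went from 99.01 ± 1.96 to 143.1 ± 20.8 CPM (log2 change 0.53, SE 0.11, edgeR adjusted p = 0.0181) and EP300 from 106.2 ± 5.51 to 132.4 ± 11.9 CPM (0.32, SE 0.09, edgeR adjusted p = 0.0388). HS1 was the lowest of the heat stress libraries in both, at 119.1 and 118.9 CPM.

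ATAD2B, an AAA-type ATPase with a bromodomain, rose from 33.0 ± 0.950 to 43.7 ± 2.71 CPM (log2 change 0.40, SE 0.08, edgeR adjusted p = 0.0165). The 4 that did not pass were ATAD2 (0.18), PBRM1 (0.07) and the SWI/SNF motors SMARCA2 (0.22) and SMARCA4 (0.16), all given as log2 changes. The count of 4 was 2 without TN1, 2 without TN3, 2 without HS2, and 0 without TN2 or HS3, where 5 and 4 had an unadjusted p under 0.05. With the length trend removed 3 were called and the median was 0.18. These genes are long, with a median of 6491 bases, which lies in the top quintile of length.

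A further list held subunits of acetyltransferase complexes, some of which also contain members, and of TFIID. In this list of subunits without a bromodomain, 14 of 43 tested genes were higher, 2 were lower and 27 did not pass, beside 10.2% and 9.52% of all tested genes, with a median log2 change of 0.19. TRRAP, the large scaffold of the SAGA and TIP60 complexes, gave 123.7, 110.0 and 105.1 CPM against 165.3, 182.5 and 175.2 CPM (log2 change 0.63, SE 0.08, edgeR adjusted p = 0.0092) and passed with any library left out. JADE2 and JADE3, alternative scaffolds to BRD1 for KAT7, had log2 changes of 0.45 (SE 0.07) and 0.86 (SE 0.13) and passed. So did the TFIID subunit TAF3, which reads methylated histone H3, at 0.57 (SE 0.08).

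The falls in that list were RUVBL2 and VPS72, named after their values were seen. RUVBL2, an ATPase shared by TIP60, INO80 and chaperone complexes, gave 151.3, 161.0 and 152.1 CPM against 112.2, 80.9 and 86.9 CPM, a log2 change of −0.73 (SE 0.12). VPS72, which handles histone H2A.Z, changed by −0.42 (SE 0.07). The numbers called were 8 higher and 2 lower without TN1, 4 and 0 without TN2, 6 and 2 without TN3, 7 and 2 without HS2, and 1 and 0 without HS3. With library totals as scaling they were 9 higher and 2 lower.

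Among acetyltransferases and YEATS-domain readers without a bromodomain, 7 of 16 were higher, 0 were lower and 9 did not pass, beside 10.2% and 9.52% of all tested genes, with a median log2 change of 0.24. At an unadjusted p under 0.05, 8 were higher and 2 lower, and DESeq2 and limma-voom called 7 higher and 0 lower. KAT7, the enzyme that BRD1 and BRPF3 scaffold, gave 102.8, 89.9 and 84.4 CPM against 125.1, 148.6 and 139.6 CPM (log2 change 0.58, SE 0.10, edgeR adjusted p = 0.0122). CLOCK, better known as a circadian transcription factor, rose by 0.65 (SE 0.10), the transcription factor ATF2 by 0.39 (SE 0.07) and the YEATS reader MLLT1, a part of the super elongation complex, by 0.35 (SE 0.08). The count of 7 fell to 1 without TN2, 2 without TN3 and 0 without HS3, where 7 were higher at an unadjusted p under 0.05. Library totals as scaling gave 3 higher and 2 lower. The median length of this list was 3631 bases, which lies in the top quintile of length. With the length trend removed 6 were called higher and 0 lower, and the median log2 change was 0.20.

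The enzymes that remove acetyl groups were looked at next. Of 15 histone deacetylases and sirtuins 0 were higher, 3 were lower and 12 did not pass, beside 10.2% of all tested genes higher and 9.52% lower, with a median log2 change of −0.03. At an unadjusted p under 0.05, 3 were higher and 6 lower, and DESeq2 and limma-voom each called 1 higher and 3 lower. SIRT5, a mitochondrial enzyme that removes succinyl and related groups, gave 53.5, 50.9 and 45.4 CPM against 34.7, 31.4 and 27.8 CPM (log2 change −0.67, SE 0.11, edgeR adjusted p = 0.0109). HDAC2, a nuclear deacetylase of several co-repressor complexes, gave 104.6, 109.8 and 112.0 CPM against 88.0, 81.2 and 83.1 CPM (−0.37, SE 0.07, edgeR adjusted p = 0.0133). SIRT2, mainly cytoplasmic, fell by 0.43 on the log2 scale (SE 0.08). The calls numbered 0 in either direction without TN2 or HS3. At an unadjusted p under 0.05, 3 were higher and 3 lower without TN2, and 2 were higher and 3 lower without HS3. Without HS1, 2 were called higher and 3 lower. No test compared the deacetylases with the other lists.

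Of 23 tested subunits of SWI/SNF and ISWI remodellers without a bromodomain, 3 (13.0%) were higher, 0 were lower and 20 did not pass, with a median log2 change of 0.04. That share is near the 10.2% of all tested genes called higher. At an unadjusted p under 0.05, 5 were higher and 2 lower, DESeq2 called 4 higher and 0 lower, and limma-voom 3 and 0. The 3 were the SWI/SNF subunits ARID1B (0.32, SE 0.08) and DPF3 (0.91, SE 0.21, from a low 1.74 ± 0.113 CPM) and the SMARCA5 partner RSF1 (0.31, SE 0.07), given as log2 changes. SMARCA5, the motor that BAZ1B joins, had a log2 change of 0.27 (SE 0.08) and did not pass. The number called higher was 1 without TN1, and 4 with 1 lower without HS1. It was 0 without TN2, TN3, HS2 or HS3. In each of the latter fits 4 were higher at an unadjusted p under 0.05, with 3 lower without TN3 and 0 lower in the others. Library totals gave 1 higher and 1 lower.

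In the list of P-TEFb and elongation factors linked to BET proteins, 5 of 24 were higher, 2 were lower and 17 did not pass, beside 10.2% and 9.52% of all tested genes, with a median log2 change of 0.12. JMJD6, a JmjC-domain oxygenase, gave 42.6, 45.1 and 51.7 CPM against 92.1, 189.9 and 162.8 CPM, a log2 change of 1.67 (SE 0.26, edgeR adjusted p = 0.0131). HS1 again lay nearest to the thermoneutral libraries. AFF4 rose by 0.70 (SE 0.06) and NELFA, a subunit of the pausing factor NELF, by 0.42 (SE 0.07), while NELFE, of the same complex, changed by −0.37 (SE 0.07) and PAF1, named after its value was seen, by −0.37 (SE 0.08). The calls were 3 higher and 1 lower without TN1, 1 and 0 without TN2, 3 and 1 without HS2, and 1 and 0 without HS3.

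**Figure D4:**
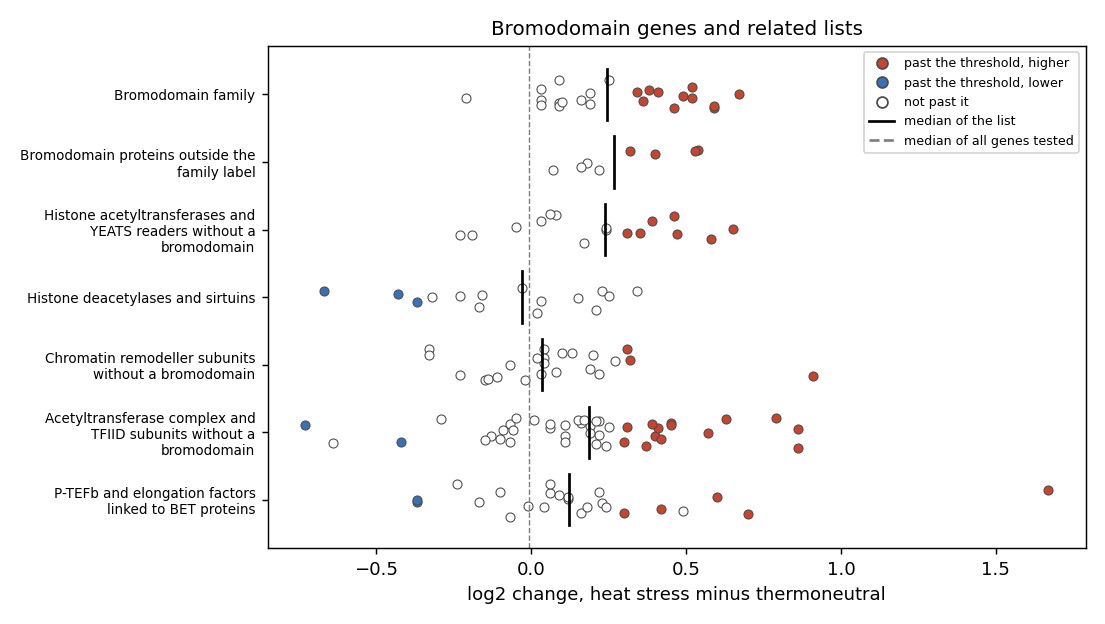
Log2 change (heat stress minus thermoneutral) of each tested gene in the bromodomain family and in 6 related lists, with red points called higher, blue points called lower, open points not past the threshold, a black bar at each list's median and a dashed line at the median of all genes tested. Medians lie between 0.19 and 0.27 for the bromodomain and acetyltransferase lists, the one with TFIID subunits included. They lie at 0.12 for elongation factors, 0.04 for remodeller subunits and −0.03 for deacetylases, and no test compared the lists. Median gene lengths were 4229 bases for the family, 6491 for bromodomain proteins outside the label, 3631 for acetyltransferases and 2580 for the TFIID list. For elongation factors, remodeller subunits and deacetylases they were 2946, 2639 and 2762 bases. The part of length in the differences between lists was not tested.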

How the data were processed

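The deposited table gives raw read counts and FPKM values per gene for 6 libraries, made by the authors. Named in the submitters' processing notes are fastp, the aligner HISAT2 (2.0.5), the counter featureCounts (1.5.0-p3) and the chicken build GRCg6a. Which annotation release, strand setting and FPKM formula were used is not given in the sources used here. Per the labels' protocols, libraries were poly-A selected with dUTP in the second strand. Deposited counts were tested with edgeR 4.0.16 in R 4.3.3 (TMM, filterByExpr, robust quasi-likelihood test of heat stress minus thermoneutral, Benjamini-Hochberg adjustment, threshold 0.05). The filter left 15655 of 20285 rows. The SE is the absolute log2 change over the square root of F. Deposited FPKM served for levels between genes. List genes were matched by symbol, or by NCBI gene number to RefSeq (GRCg7b) where the file gives none, without family members, KAT2A and chromosome 16. Every member is named. From each list up to 4 genes past the threshold were named by adjusted p. Members and lists were chosen with earlier results of these data known. The scripts were tested on simulated data. Alternatives were RLE and upper-quartile scaling, no and a stricter filter, DESeq2 1.42.0, limma-voom (limma 3.58.1), a replicate block, removal of a length trend, protein-coding genes only, each library left out and, added after the data were seen, library totals.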

Additional observations from a re-analysis of the deposited data

How the results depend on the processing

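The number of genes called (3092) stayed between 2722 and 3926 under the alternatives that kept all libraries, and ran from 299 to 3699 with a library left out. For the bromodomain family (11 called) the range with a library left out was 1 to 12. Upper-quartile scaling left 7 and library totals 4, and the median log2 change of all genes shifted by −0.04 and −0.10. For bromodomain proteins outside the label (4 called) the range was 0 to 4, for acetyltransferases and YEATS readers (7) 0 to 7, for deacetylases (3) 0 to 5, for remodeller subunits (3) 0 to 5, for acetyltransferase complexes and TFIID (16) 1 to 17, and for elongation factors (7) 1 to 8. Library totals called 5 deacetylases. The deviations of same-numbered libraries from their group means correlated at −0.05, 0.25 and 0.07. Deviations within a group of 3 depend on each other, so these values cannot tell whether replicate numbers pair the libraries. A replicate block gave 2722 genes, 8 family members and 0 remodeller subunits, where 5 were higher and 2 lower at an unadjusted p under 0.05. With 3 pools per group, most called members did not pass in at least 1 fit with a library left out. Calls over all genes also fell in most of these fits, to 400 without TN2 and 299 without HS3. The members' median log2 change was 0.25 with all libraries and ran from 0.20 without HS2 to 0.34 without HS1. It was 0.27 without TN2 and 0.25 without HS3. These fits reuse the counts that chose the family, so nothing is read from these medians. Of the 11 called members, only BRD1 passed with any library left out. The fewest counts of a member in a library were 74.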
